A study of Mus musculus with 12 samples.

Results

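Wells 1, 3, 4 and 6 of the wild-type line are 4 of the 12 libraries of this series, which sequenced RNA from sheets of C2C12, muscle precursor cells of the mouse that fuse to form myotubes. All wells were seeded on a fibrin gel, grown in medium with aminocaproic acid, an inhibitor of fibrin breakdown, and differentiated for 6 days with that compound, horse serum and IGF-1. The 4 wells carry the wild-type genotype and differ in no label. They were grouped by a measured value: wells 1 and 3 were chosen for high and wells 4 and 6 for low message of Nqo1, the quinone reductase of the antioxidant response. The other 6 libraries used here for comparison come from the ChR2::tdTomato line (ChR2 below), C2C12 cells carrying a light-gated cation channel fused to a red fluorescent protein, in the same gel and media. The labels used here give no promoter for that transgene, do not say whether the line is 1 clone and mention no light stimulation. Wild-type wells 2 and 5 were left out because they held much RNA without a poly(A) tail.

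Because Nqo1 message chose the wells, every difference between the pairs below is a description of these 4 libraries, with no p-value. No label says whether the wells were separate cultures, so the spread within a pair may be technical. Levels are CPM, counts relative to a library size scaled by the trimmed mean of M values (TMM), and ratios are of pair means, wells 1 and 3 over wells 4 and 6, on the log2 scale. For the ratios, a library under 3 counts was set to 3. Nqo1 (ENSMUSG00000003849) stood at 163 and 105 CPM in wells 1 and 3 and 21.1 and 12.9 CPM in wells 4 and 6, a 7.88-fold ratio. The lowest well of the high pair was therefore well 3 and the highest of the low pair well 4. Wells 2 and 5 lay between them at 57.2 and 79.1 CPM, and the ChR2 wells below all of them at 6.13 to 8.92 CPM.

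NRF2, encoded by Nfe2l2, is the transcription factor that cells use against oxidants and electrophiles. In the resting state the adaptor KEAP1 captures it for ubiquitination and breakdown by the proteasome. Electrophiles modify KEAP1, NRF2 then accumulates, pairs with small MAF proteins and binds antioxidant response elements beside genes for glutathione synthesis, quinone and aldehyde reduction, NADPH supply and iron handling. In muscle the pathway is known for its part in the response to exercise and in redox balance during differentiation.

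Total estimated counts were between 10268033 and 13628540 in the 4 wells and between 7388726 and 12229436 in the ChR2 wells, against 1061051 in well 2 and 2809669 in well 5. Mitochondrially encoded messages took 2.91% and 1.28% of the counts in wells 1 and 3 and 2.20% and 4.02% in wells 4 and 6. Within each pair the wells differed beyond sampling noise (chi-square per degree of freedom of 22.96 and 23.05), so each library counted once. All 10 skeletal muscle identity markers were measured in the 4 wells, among them desmin (Des) at 1849.5, 2678, 2784 and 3116 CPM in wells 1, 3, 4 and 6. The label calls the cells myoblasts, whereas the protocol and the levels of sarcomeric genes below describe differentiated sheets.

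Among the genes whose pairs of wells stood apart, those higher in wells 1 and 3 included the detoxifying genes Gsta1, Gsta4 and Aldh3a1, the glutathione gene Gclm and, narrowly, the iron storage gene Ftl1. Those lower included the myosin Myh4, the collagen Col12a1, the lipoprotein receptor Vldlr and the chemokine Cxcl1. A gene was counted as apart where the lower well of the higher pair exceeded the higher well of the lower pair at least 2-fold, with a library under 3 counts set to 3. Of 13117 genes with a mean of at least 1 CPM, 65 (0.496% of those measured) were apart in this way and higher in wells 1 and 3, and 206 (1.57%) were apart and lower. On the deposited TPM the balance of higher and lower was 125 to 142, with a median over all genes of 0.15 in place of -0.00, so list medians below are to be read against a shift of that size between scales. Whatever the gap, 3726 genes (28.4%) were higher in both wells 1 and 3 than in wells 4 and 6, 3303 (25.2%) were lower in both, and 6088 overlapped. Since the wells were chosen within this contrast, nothing is read from those shares. They serve only as the background for the list counts below, as do the 0.496% and 1.57% of genes apart.

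**Figure D1:**
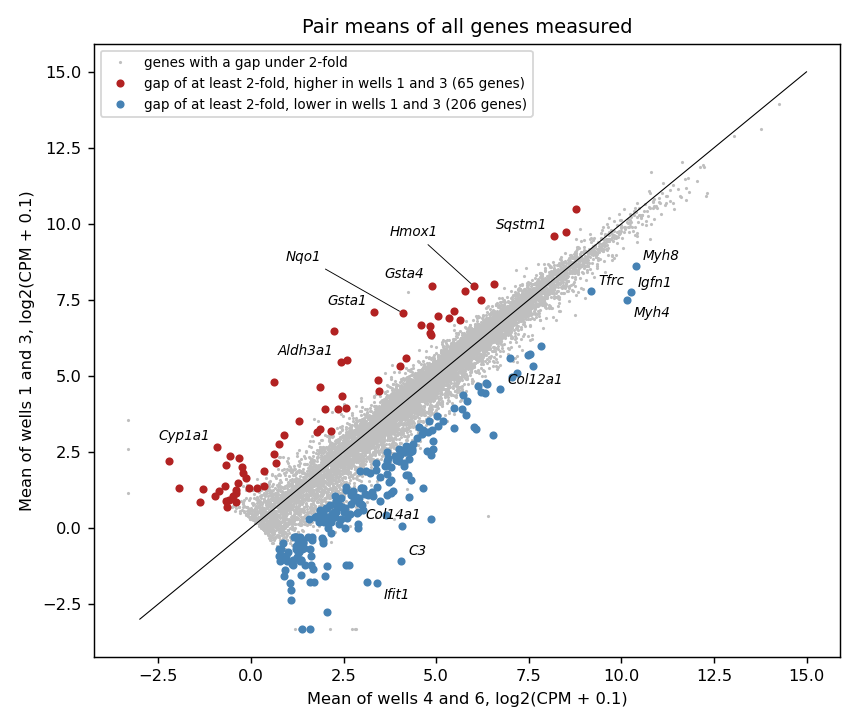
Mean level of each of the 13117 measured genes in wells 4 and 6 (horizontal axis) and in wells 1 and 3 (vertical axis), both as log2(CPM + 0.1). Red and blue points are the 65 and 206 genes whose pairs stood apart at least 2-fold in either direction, and the line marks equal means.

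The pairs were not tight. Wells 1 and 3 differed at least 2-fold in 656 genes and wells 4 and 6 in 635, against 843 to 1473 between wells of different pairs and 276 to 507 between any 2 ChR2 wells. Pearson's correlation of log2(CPM + 1) across genes was 0.981 within wells 1 and 3, 0.980 within wells 4 and 6 and 0.958 to 0.976 between the pairs. The first principal component of the 4 wells carried 59.9% of their variance, with scores for wells 1, 3, 4 and 6 of 36.2, 15.4, -23.3 and -28.4, so well 1 stood further from the low pair than well 3. Wells 4 and 6 differed at least 2-fold from single ChR2 wells in 1009 to 1579 genes, and wells 1 and 3 in 1500 to 2290.

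Joined, the 6 lists of NRF2 biology held 122 genes, of which 100 were measured. Nqo1 is one of them, and its place was fixed by the choice of wells. Of the other 99, 16 were apart and higher in wells 1 and 3 and 2 were apart and lower, Ces2g and Tfrc, and the remaining 81 were not apart. Of all genes measured, 0.496% were apart and higher and 1.57% apart and lower. Whatever the gap, 49 of the 99 were higher in both wells, beside 28.4% of all genes, and 28 overlapped. The other 22 were lower in both, near the 25.2% of all genes. The median log2 ratio of the 99 was 0.18 beside -0.00 over all genes measured.

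Enzymes that reduce quinones, carbonyls and aldehydes numbered 10 measured besides Nqo1. Of these 10, 3 were apart and higher (Aldh3a1, Cbr3 and Ptgr1) and 1 was apart and lower, beside 0.496% and 1.57% of all genes. Aldh3a1, an aldehyde dehydrogenase for aromatic and lipid-derived aldehydes, stood at 46.6 and 40.4 CPM in wells 1 and 3 and 5.12 and 5.39 CPM in wells 4 and 6 (log2 ratio 3.05). Its 2 high wells lay close together, as did its 2 low wells, and ChR2 wells were lower still at 1.15 to 2.48 CPM. Carbonyl reductase 3 (Cbr3) stood at 24.8 and 15.7 CPM in wells 1 and 3 and 6.16 and 4.54 CPM in wells 4 and 6 (log2 ratio 1.92), while its neighbour in function Cbr1 was nearly level at 32.3, 31.9, 30.9 and 28.95 CPM. Ptgr1, a reductase of prostaglandins and alkenals, stood at 143 and 94.2 CPM in wells 1 and 3 and 38.7 and 42.97 CPM in wells 4 and 6, with ChR2 wells at 40.3 to 47.4 CPM, close to the low pair. The microsomal epoxide hydrolase Ephx1 at 155 and 167 against 124 and 72.5 CPM and the conjugate exporter Abcc1 at 102 and 98.2 against 76.5 and 60.1 CPM were higher in both wells with a smaller gap. The carboxylesterase Ces2g went the other way, at 0.646, 0.769, 4.34 and 1.69 CPM, and its 4.26-fold ratio was 2.39-fold without well 4. The aldo-keto reductases showed no common direction: Akr1b8 overlapped at 56.96, 70.6, 65.4 and 50.98 CPM, and Akr1b10 was lower in wells 1 and 3 at 9.97 and 15.3 against 20.1 and 22.02 CPM.

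Glutathione S-transferases, which couple glutathione to electrophiles, differed widely among themselves. Of 16 measured members 5 were apart and higher, beside 0.496% of all genes. Whatever the gap, 10 were higher in both wells and 3 lower in both, beside 28.4% and 25.2% of all genes. The other 3 overlapped, and the median was 0.89. Over the 21 members left with no filter on the mean, 10 were higher in both wells and 6 lower in both, and the median was 0.24. Gsta1 (ENSMUSG00000074183) stood at 196 and 80.2 CPM in wells 1 and 3 and 5.47 and 14.3 CPM in wells 4 and 6, a 13.9-fold ratio that was 8.11-fold without well 1 and 25.2-fold without well 6. Its wells spread widely within each pair, yet the pairs stayed far apart. Gsta2 stood at 38.96 and 16.7 CPM in wells 1 and 3 and 0.781 and 2.08 CPM in wells 4 and 6, the low wells resting on 9 and 27 counts, and its 19.5-fold ratio was 11.7-fold without well 1 and 35.6-fold without well 6. Gsta4, which takes up the lipid peroxidation product 4-hydroxynonenal, stood at 309 and 191 CPM in wells 1 and 3 and 27.9 and 30.6 CPM in wells 4 and 6 (log2 ratio 3.10) and its low wells lay just above the ChR2 range of 20.00 to 22.8 CPM. Per length, Gsta4 was at 537 and 329.8 against 45.4 and 45.5 TPM and Nqo1 at 162 and 104 against 19.6 and 11.1 TPM. Of the pi class, Gstp2 was apart at 25.5 and 32.02 against 12.6 and 8.86 CPM, and Gstp1 was higher in both wells with a smaller gap, at 406 and 421 against 228 and 199 CPM. Gsta1 with Gsta2, and Gstp1 with Gstp2, have near-identical sequences, so the split of reads between such copies is uncertain. Members that did not follow included Gstm2 at 9.32, 8.75, 8.85 and 8.70 CPM, and Mgst3 and Gstz1, lower in wells 1 and 3 at 40.7 and 43.8 against 58.9 and 68.3 CPM and 25.8 and 26.7 against 39.7 and 39.3 CPM.

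Among 12 measured genes of glutathione synthesis and recycling, 2 were apart and higher, beside 0.496% of all genes. Whatever the gap, the list was evenly split, with 5 higher in both wells and 5 lower in both. Among all genes the shares were 28.4% and 25.2%. The other 2 overlapped, and the median was 0.03. Gclm, the modifier subunit of the enzyme that makes the first step of glutathione, stood at 125 and 77.8 CPM in wells 1 and 3 and 23.6 and 24.4 CPM in wells 4 and 6 (log2 ratio 2.08), and its low wells lay within the ChR2 range of 17.5 to 25.7 CPM. Gsr, which regenerates glutathione with NADPH, stood at 97.6 and 73.8 CPM in wells 1 and 3 and 30.1 and 26.3 CPM in wells 4 and 6. The catalytic subunit Gclc and the synthetase Gss were higher in both wells with a smaller gap, at 71.9 and 68.3 against 35.1 and 40.7 CPM and 145 and 113 against 76.9 and 76.2 CPM. The cystine importer Slc7a11 overlapped, at 13.8, 5.19, 7.20 and 3.62 CPM. The 5 genes lower in both wells were Chac1, Glrx2 and the glutathione peroxidases Gpx1, Gpx3 and Gpx4, which spend glutathione on peroxides. Gpx1 stood at 49.4 and 40.2 against 83.4 and 101 CPM and the secreted Gpx3 at 55.3 and 88.96 against 209.6 and 163 CPM. Gpx4 was at 666 and 601 against 737 and 821 CPM, while Gpx8 was slightly higher in both wells, at 147 and 151 against 144 and 128 CPM.

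Thioredoxin and peroxiredoxin genes numbered 18 measured, of which 2 were apart and higher, Srxn1 and Osgin1, beside 0.496% of all genes. Whatever the gap, 8 were higher in both wells, beside 28.4% of all genes. Lower in both were 3 (Prdx2, Prdx4 and Prdx5), beside 25.2% of all genes, and 7 overlapped. Srxn1, sulfiredoxin, which repairs overoxidised peroxiredoxins, stood at 163 and 89.6 CPM in wells 1 and 3 and 36.9 and 29.3 CPM in wells 4 and 6 (log2 ratio 1.93), and Osgin1, an oxidative stress induced growth inhibitor, at 39.4 and 40.5 against 17.5 and 14.9 CPM. Thioredoxin reductase Txnrd1 at 416 and 296 against 158 and 128 CPM, thioredoxin Txn1 at 467 and 358 against 231 and 255 CPM and the peroxiredoxins Prdx1 at 1085 and 718 against 444 and 497 CPM and Prdx6 at 436 and 307 against 188 and 153 CPM were all higher in both wells of the high pair. The mitochondrial forms were nearly level, with Txnrd2 at 8.68, 12.5, 10.9 and 10.3 CPM, Prdx3 at 121, 134, 117 and 131 CPM and the manganese superoxide dismutase Sod2 at 88.6, 108, 99.5 and 96.2 CPM.

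**Figure D2:**
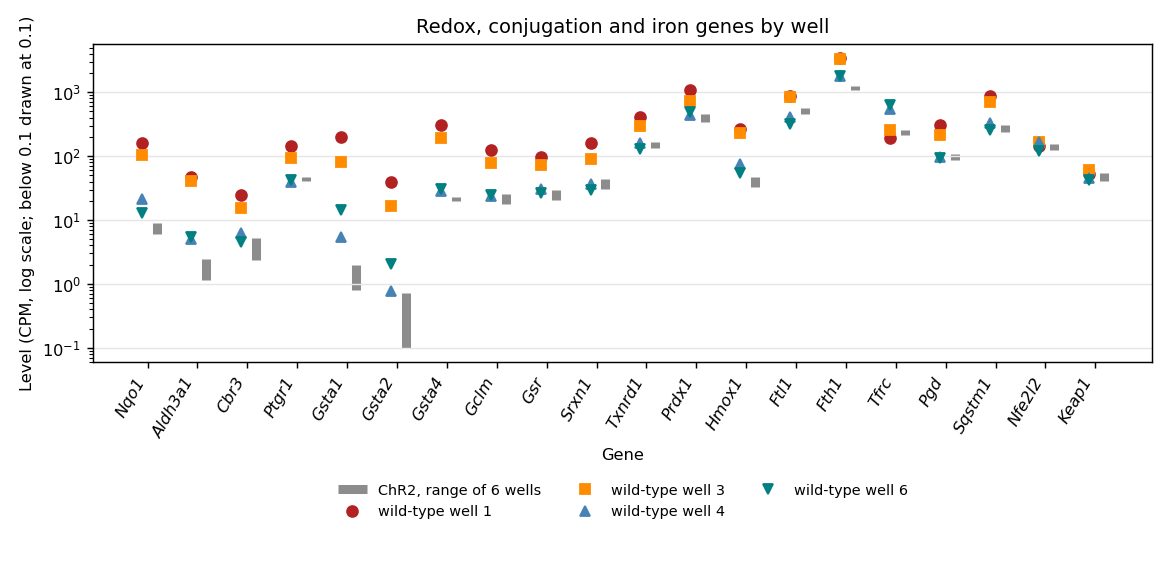
Levels (CPM, log axis) of redox, conjugation and iron genes and of Nfe2l2 and Keap1 in the 4 wild-type wells, 1 marker per well, with the range of the 6 ChR2 wells as a grey bar; values below 0.1 are drawn at 0.1. Nqo1 stood at 163 and 105 CPM in wells 1 and 3 and 21.1 and 12.9 CPM in wells 4 and 6, Tfrc had the opposite order, and the wells overlapped for Nfe2l2.

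Iron and heme genes formed a mixed picture. Of 16 measured, 2 were apart and higher and 1 apart and lower, beside 0.496% and 1.57% of all genes. Heme oxygenase 1 (Hmox1, ENSMUSG00000005413), which opens heme and frees its iron, stood at 264 and 231 CPM in wells 1 and 3 and 74.98 and 54.4 CPM in wells 4 and 6 (log2 ratio 1.94), above 32.6 to 46.4 CPM in ChR2 wells in all 4 cases. The ferritin light chain Ftl1, a subunit of the shell that stores iron, stood at 865 and 827 against 411 and 321 CPM, with ChR2 wells at 449.8 to 574 CPM, above the low pair. Its gap of 2.01-fold lay at the threshold. With DESeq2 size factors or upper-quartile scaling only 1 gene of this list was apart and higher. The heavy chain Fth1 was at 3374 and 3262 against 1811 and 1770.5 CPM. The transferrin receptor Tfrc, which brings iron into the cell, stood at 192 and 254 CPM in wells 1 and 3 and 543 and 625 CPM in wells 4 and 6 (log2 ratio -1.39). For Tfrc it was the low-Nqo1 pair that stood away from the ChR2 range of 211 to 259 CPM. Biliverdin reductase B (Blvrb) at 54.7 and 27.9 against 14.1 and 13.6 CPM followed Hmox1, while Blvra at 20.1, 18.3, 18.1 and 20.1 CPM and the constitutive heme oxygenase Hmox2 at 31.6, 41.2, 41.3 and 35.5 CPM overlapped. Slc48a1, which moves heme out of lysosomes and was among the genes with the largest gap, stood at 249 and 195 CPM in wells 1 and 3 and 59.2 and 50.1 CPM in wells 4 and 6 (log2 ratio 2.02). Slc11a2, the divalent metal importer, was lower in wells 1 and 3, at 53.5 and 59.05 against 109.9 and 74.6 CPM.

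Of 11 NADPH-supplying enzymes 1 was apart and higher, beside 0.496% of all genes. Whatever the gap, 6 were higher in both wells and 3 lower in both, beside 28.4% and 25.2% of all genes. The other 2 overlapped. The gene apart was Pgd of the pentose phosphate pathway. It stood at 308 and 212 CPM in wells 1 and 3 and 96.8 and 92.8 CPM in wells 4 and 6 (log2 ratio 1.46). The malic enzyme Me1 at 136 and 116 against 80.3 and 58.8 CPM, transaldolase (Taldo1) at 152 and 124 against 86.4 and 80.4 CPM and G6pdx, the entry enzyme, at 36.3 and 33.5 against 24.5 and 16.02 CPM were higher in both wells, whereas the mitochondrial isocitrate dehydrogenase Idh2 was lower, at 41.3 and 61.6 against 75.2 and 74.2 CPM.

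Of 12 regulators of the pathway measured, 1 was apart and higher, beside 0.496% of all genes. Whatever the gap, 6 were higher in both wells and 1 lower in both, beside 28.4% and 25.2% of all genes. The other 5 overlapped. Nfe2l2 overlapped, at 142, 167, 166 and 122 CPM in wells 1, 3, 4 and 6. Keap1 was slightly higher in both wells of the high pair, at 52.99 and 60.3 against 44.8 and 43.05 CPM, as was the repressor Bach1, at 112 and 110.2 against 71.5 and 65.5 CPM. The autophagy receptor Sqstm1, which binds KEAP1 and is itself an NRF2 target, was the 1 of 12 regulators apart and higher, at 859 and 699.6 CPM in wells 1 and 3 and 328 and 256 CPM in wells 4 and 6 (log2 ratio 1.41). The related factor Nfe2l1, which drives proteasome genes, was lower in wells 1 and 3, at 477 and 676 against 838 and 688 CPM. Messages do not measure NRF2 protein.

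Promoter windows of RefSeq (GRCm38.p6, from 250 bases before to 50 after each start) were searched on both strands for the antioxidant response element core TGACNNNGC. The table held 9766 of the measured genes, 41 of the 65 higher genes and 133 of the 206 lower ones. The core was found in 8 (19.5%) of those higher and 30 (22.6%) of those lower genes, in 17% of the measured genes and in 14% of all 27025 in the table. The window of Nqo1 (chromosome 8, 107403156 to 107403455, minus strand) and that of Gsta1 (chromosome 9, 78230419 to 78230718, plus strand) hold no such letters. Enhancers further away were not searched. A pair of higher genes that carry the core before their start is printed because 1 is a classical NRF2 target and the other is a muscle gene. Capitals mark the core, on the opposite strand in Gclm (chr3:122245363-122245491, plus strand, first base of the match 134 before the start) and on the gene's own strand in Fbxo40 (chr16:36979173-36979301, minus strand, 105 before the start). RefSeq gives Fbxo40 a second start, whose window (chromosome 16, 36990418 to 36990717) holds no core.
Gclm: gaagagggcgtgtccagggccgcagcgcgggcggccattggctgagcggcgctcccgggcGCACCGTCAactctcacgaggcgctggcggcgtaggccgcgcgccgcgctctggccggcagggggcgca
Fbxo40: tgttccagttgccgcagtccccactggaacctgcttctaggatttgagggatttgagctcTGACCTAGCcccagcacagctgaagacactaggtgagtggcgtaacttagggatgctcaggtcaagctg
A match is a description of letters and not of binding. Fbxo40, a muscle-specific F-box gene whose product targets the insulin receptor substrate for breakdown, stood at 107 and 91.8 CPM in wells 1 and 3 and 30.03 and 27.2 CPM in wells 4 and 6 (log2 ratio 1.80), with ChR2 wells at 17.4 to 29.2 CPM.

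The aryl hydrocarbon receptor, a sensor of planar aromatic compounds, shares several targets with NRF2. Of 10 measured genes of its battery besides Nqo1, 3 were apart and higher, beside 0.496% of all genes. Aldh3a1 and Gsta1 are also NRF2 targets and were described above. The other was Cyp1a1, the monooxygenase used as the readout of that receptor, at 7.57 and 4.81 CPM in wells 1 and 3 and 0.174 and 0.693 CPM in wells 4 and 6. The low wells rested on 2 and 9 counts, the ChR2 wells lay at 0 to 0.113 CPM, and the 12.98-fold ratio was 23.8-fold without well 6. In both ratios well 4 was set to 3 counts, so they depend on that floor. Cyp1b1 was higher in both wells with a smaller gap, at 44.96 and 66.9 against 33.4 and 19.4 CPM, while Tiparp at 117, 104, 122 and 87.7 CPM and the receptor Ahr at 9.14, 12.1, 9.98 and 10.5 CPM overlapped. The core GCGTG of its binding site was found in 46.3% of the higher, 41.4% of the lower and 56.8% of the measured genes with a window.

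Proteasome genes, some of which are also listed as NRF2 targets, had small ratios of 1 sign. None of 33 measured genes was apart. Whatever the gap, 26 were higher in both wells 1 and 3, beside 28.4% of all genes. None was lower in both, beside 25.2% of all genes, and 7 overlapped. Their median was 0.41 beside -0.00 for all genes (0.25 without well 1). Psmd11, a lid subunit, stood at 243 and 215 against 144 and 150.2 CPM, Psma1 of the core ring at 198 and 143 against 101 and 113 CPM and Psmd3 at 231 and 238 against 155 and 147 CPM. Psma3 at 611, 455, 388 and 484 CPM and Psmc6 at 592, 445, 380.5 and 480.4 CPM overlapped, with well 6 above well 3. The ChR2 range of Psmd11 was 106 to 119.7 CPM, below all 4 wells.

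Of 22 heat shock genes measured none was apart. In both wells 16 were higher and 2 lower (Hspb3 and Hspb6), beside 28.4% and 25.2% of all genes, and 4 overlapped. The median was 0.30. The small chaperone Cryab, abundant in muscle, stood at 772 and 672 against 448 and 437 CPM, the small chaperone Hspb8 at 841 and 802 against 481 and 653 CPM and its partner Bag3 at 108 and 119.8 against 74.7 and 79.01 CPM. Of 19 endoplasmic reticulum chaperones none was apart. In both wells 13 were lower and 2 higher, beside 25.2% and 28.4% of all genes, with a median of -0.27 (-0.15 without well 1). Hspa5, the main chaperone of that compartment, stood at 448 and 548 against 772 and 933 CPM, and calreticulin (Calr) at 505 and 657 against 706 and 736 CPM.

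**Figure D3:**
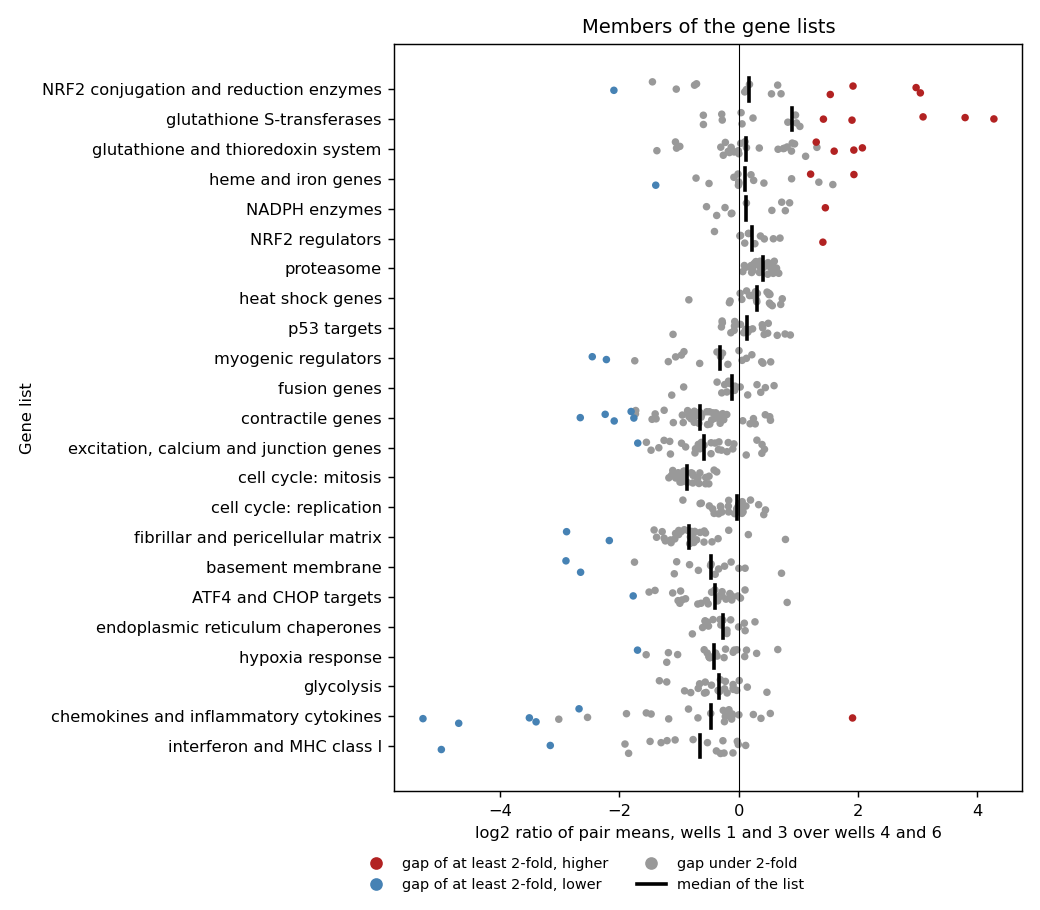
Log2 ratio of pair means (wells 1 and 3 over wells 4 and 6) for each measured member of 23 gene lists, with a bar at the median of each list; red and blue points stood apart at least 2-fold. Members of the glutathione S-transferase list reach 4.28 with a median of 0.89, proteasome points lie between 0.07 and 0.67, and mitosis points between -1.17 and -0.37.

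Of 52 contractile genes measured, 5 were apart and lower in the high-Nqo1 wells, beside 1.57% of all genes. Whatever the gap, 35 were lower in both wells, beside 25.2% of all genes, 5 were higher in both and 12 overlapped. Their median was -0.64, and -0.41 without well 1. The adult fast myosin Myh4 stood at 118 and 241 CPM in wells 1 and 3 and 802 and 1457 CPM in wells 4 and 6, a 6.30-fold difference that was 9.59-fold without well 3. All 4 wells differed from each other, with well 1 the lowest and well 6 the highest, and the ChR2 wells covered 365 to 1119.9 CPM. Neonatal Myh8 stood at 242 and 549 CPM in wells 1 and 3 and 1173 and 1499.8 CPM in wells 4 and 6 and was apart, with ChR2 wells at 269 to 425 CPM, closer to the high-Nqo1 pair. The cardiac and slow gene Myh6 stood at 10.8 and 18.9 against 42.00 and 61.8 CPM, and Tcap, which caps titin at the Z-disc, at 7.02 and 19.3 against 44.3 and 67.5 CPM, 4.25-fold lower in the high pair and 7.97-fold without well 3. Fast Myh1 was at 1212 and 2635 against 3961 and 6079.5 CPM, and embryonic Myh3 at 374 and 803 against 804 and 1326 CPM, where wells 3 and 4 were level. The structural gene Igfn1, which was among those with the largest gap, stood at 167 and 263 CPM in wells 1 and 3 and 908 and 1528 CPM in wells 4 and 6 (log2 ratio -2.50).

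The order well 1, well 3, well 4, well 6 from low to high recurred in Myh1, Myh2 at 25.5, 62.6, 105 and 187 CPM, Mybpc2 at 76.8, 153, 269 and 337 CPM and Tpm2 at 1490.5, 2324, 2785 and 3512 CPM. Skeletal actin Acta1 broke it, at 2849, 4615, 4486 and 4490.2 CPM, low in well 1 only. The 5 contractile genes higher in both wells 1 and 3 were Mylk2, Ankrd1, Ankrd2, Flnc and Xirp1. Among them Flnc, filamin C of the Z-disc, stood at 1098 and 1239.9 against 845 and 783 CPM and Xirp1, a repair scaffold, at 229 and 225 against 148 and 165 CPM. In bulk RNA, fewer differentiated cells and less of these messages per cell cannot be told apart.

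Of 31 excitation, calcium and junction genes 1 was apart and lower, beside 1.57% of all genes. In both wells 20 were lower and 5 higher, beside 25.2% and 28.4% of all genes. Their median was -0.58 (-0.38 without well 1 and -0.33 without well 6). Parvalbumin (Pvalb), the calcium buffer of fast fibres, stood at 21.2 and 14.3 CPM in wells 1 and 3 and 43.8 and 71.00 CPM in wells 4 and 6, the calcium pump Atp2a1 at 1112 and 1739 against 2377 and 3156 CPM and the voltage sensor Cacna1s at 133 and 216 against 349 and 423 CPM. The genes higher in both wells 1 and 3 were Dok7, Jph2, Musk, Erbb3 and Cacng1. Musk, the kinase that assembles the postsynaptic membrane, stood at 123 and 144 against 100.1 and 104 CPM, and the neuregulin receptor Erbb3 at 122 and 145 against 98.4 and 105 CPM.

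Myogenic regulators did not share 1 direction. Of 19 measured, 2 were apart and lower, beside 1.57% of all genes. In both wells 10 were lower and 3 higher, beside 25.2% and 28.4% of all genes, and 6 overlapped. Their median was -0.30 (-0.48 without well 3). Myogenin (Myog), which drives terminal differentiation, was slightly higher in wells 1 and 3, at 932 and 1125 CPM in wells 1 and 3 and 883 and 689 CPM in wells 4 and 6, and the transcription factors Mef2d and Tead4 had the same order, at 255 and 269.6 against 198 and 196 CPM and 152 and 165 against 114 and 104 CPM. Myod1 overlapped, at 145, 185, 175 and 199 CPM. Late factor Myf6 was lower, at 7.39 and 11.7 CPM in wells 1 and 3 and 23.7 and 65.2 CPM in wells 4 and 6, 4.65-fold over the pairs and 2.48-fold without well 6, and Mef2c stood at 135 and 200.2 against 267 and 366 CPM. The growth inhibitor myostatin (Mstn) was at 1.57 and 1.06 against 4.77 and 9.63 CPM, 5.48-fold lower and 3.63-fold without well 6. Of 16 fusion genes none was apart, 4 were higher in both wells and 4 lower in both, near the shares of all genes (28.4% and 25.2%). The fusogen Mymk overlapped at 354, 562, 472 and 486 CPM, and the fusion regulator Tmem182 was higher, at 392 and 404 against 280.5 and 246 CPM.

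**Figure D4:**
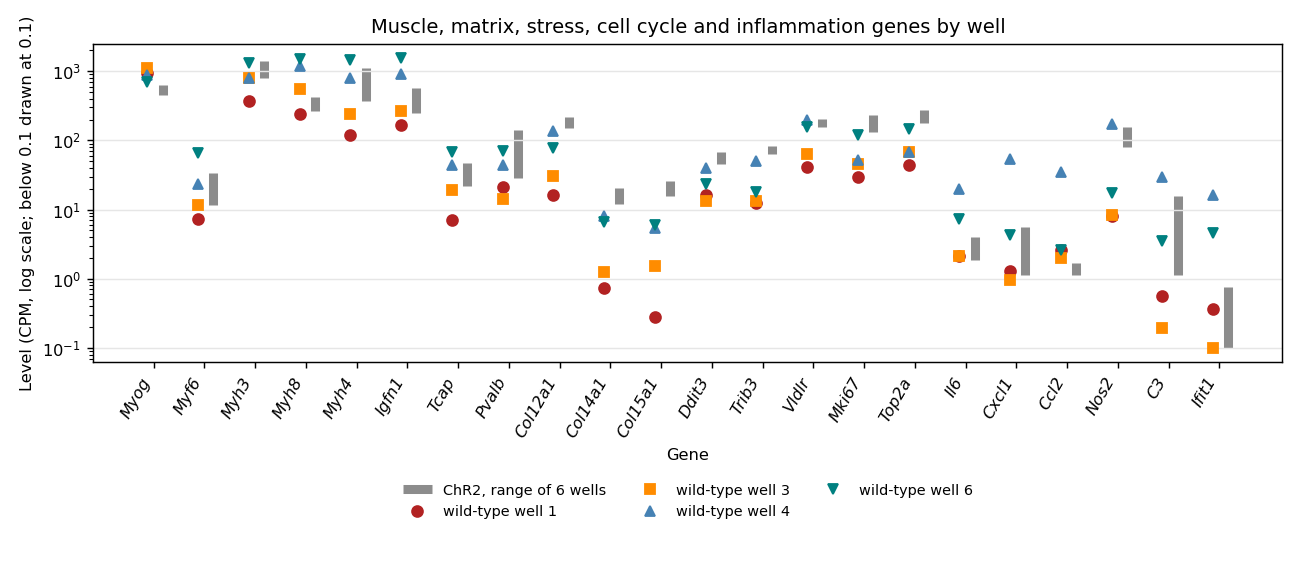
Levels (CPM, log axis) of muscle, matrix, stress, cell cycle and inflammation genes in the 4 wild-type wells, 1 marker per well, with the range of the 6 ChR2 wells as a grey bar; values below 0.1 are drawn at 0.1. Myosin and matrix genes are low in wells 1 and 3, Mki67 is highest in well 6 and Cxcl1 is highest in well 4.

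Of 32 fibrillar and pericellular matrix genes, 2 were apart and lower in the high-Nqo1 wells, beside 1.57% of all genes. Whatever the gap, 20 were lower in both wells, beside 25.2% of all genes, 1 was higher in both (Thbs1) and 11 overlapped, with a median of -0.83. Col12a1, a fibril-associated collagen, stood at 16.1 and 30.9 CPM in wells 1 and 3 and 134 and 76.6 CPM in wells 4 and 6 (log2 ratio -2.17), and Col14a1 of the same class at 0.739 and 1.25 against 8.07 and 6.62 CPM (log2 ratio -2.89). For both, the ChR2 wells were higher than all 4, at 148 to 219.7 and 12.1 to 20.2 CPM. The abundant collagens Col1a1 at 215 and 392 against 698 and 519 CPM and Col3a1 at 494 and 943 against 2196 and 1297 CPM had the same order, as did fibronectin (Fn1) at 1016 and 1258 against 2278 and 1507 CPM. Well 4 was the highest of the 4 for each of these 3. The matricellular gene Thbs1 went the other way, at 201 and 245 against 135 and 123 CPM. In basement membrane, Lama1 and Col15a1 were apart and lower of 16 measured, and 11 were lower in both wells, beside 1.57% and 25.2% of all genes. Col15a1 stood at 0.277, 1.54, 5.47 and 5.93 CPM, 6.28-fold lower in the high pair, 3.70-fold without well 1 and 20.6-fold without well 3. The adult muscle laminin chain Lama2 was at 49.6 and 69.3 against 115 and 136 CPM, while nidogen 1 (Nid1) was higher in wells 1 and 3, at 286 and 236 against 189.8 and 127 CPM. The gelatinase Mmp9, at 0, 0.0962, 5.90 and 2.23 CPM, rested on few counts in the high pair.

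Of 15 fibroblast markers 9 were measured. Beside 1.57% of all genes apart and lower, 1 of the 9 was (dermatopontin, Dpt, at 1.75 and 2.02 against 5.29 and 5.31 CPM), and beside 25.2% of all genes lower in both wells, 5 of the 9 were, with none higher in both and a median of -0.31. Their summed level was 1107 and 1292 CPM in wells 1 and 3 and 1383 and 1470 CPM in wells 4 and 6, against 1828 to 2324 CPM in ChR2 wells. Their part in the matrix result was not tested. Of 10 endothelial markers only Vwf and Egfl7 reached a mean of 1 CPM, the first apart and lower, with Pecam1, Cdh5 and Kdr under it, and of 10 neural and Schwann markers 3 were measured and all overlapped. Adipocyte markers reached 1 CPM for 3 of 9.

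The integrated stress response, in which ATF4 and CHOP induce amino acid synthesis and transport genes, had 29 measured targets. Of these 1 was apart and lower in wells 1 and 3, beside 1.57% of all genes. In both wells 18 were lower and none higher, beside 25.2% and 28.4% of all genes. The median was -0.40 (-0.22 without well 4). The lipoprotein receptor Vldlr stood at 40.9 and 63.1 CPM in wells 1 and 3 and 198 and 156 CPM in wells 4 and 6 (log2 ratio -1.77). Trib3, a pseudokinase induced by CHOP, was at 12.5 and 13.5 against 50.7 and 17.8 CPM and Ddit3, which encodes CHOP, at 16.2 and 13.2 against 39.9 and 23.2 CPM, in both cases with well 4 the highest. The ChR2 wells lay above all 4 for Trib3, at 63.5 to 81.6 CPM, and for Ddit3, at 44.9 to 68.6 CPM. Atf4 itself stood at 229 and 241 against 352 and 317 CPM. The member shared with NRF2, Slc7a11, overlapped, as given above.

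Of 22 hypoxia genes 1 was apart and lower, beside 1.57% of all genes. It was Epas1, a hypoxia-inducible factor subunit, at 1.48 and 1.54 against 3.30 and 6.47 CPM. Of the 22 hypoxia genes 11 were lower in both wells and 3 higher in both, beside 25.2% and 28.4% of all genes. Their median of -0.42 was -0.03 without well 4. Well 4 alone held high Ero1a, at 137, 147, 506 and 147 CPM, and Ndrg1, at 124, 157, 493 and 144 CPM. Of 25 glycolysis genes none was apart. In both wells 14 were lower and 1 higher, beside 25.2% and 28.4% of all genes. The glycolysis median was -0.32 (-0.12 without well 1 and -0.52 without well 3). Muscle phosphofructokinase (Pfkm) stood at 364 and 619.7 against 770.5 and 945 CPM, and Gapdh overlapped at 2411, 3298, 3603 and 3112 CPM. The 13 mitochondrially encoded messages had a median of -0.67. Of these 2 were lower in both wells, beside 25.2% of all genes, and 11 overlapped. The median was -1.32 without well 1, -0.15 without well 3 or well 6 and -1.05 without well 4, and by their summed share well 3 held the least and well 6 the most.

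Mitosis genes separated well 6 more than they separated the pairs. None of 29 was apart, 7 were lower in both wells 1 and 3, near the 25.2% of all genes, and 22 overlapped, with a median of -0.86. The proliferation marker Mki67 stood at 29.8 and 46.3 CPM in wells 1 and 3 and 51.9 and 119 CPM in wells 4 and 6, a log2 ratio of -1.17 that was -0.45 without well 6. Topoisomerase Top2a overlapped, at 43.4, 68.1, 67.3 and 144 CPM, and its 1.89-fold difference was 1.21-fold without well 6. The median of the list was -0.04 without well 6 and -1.35 without well 4. The replication genes were near level, with a median of -0.03 that was above 0 on the deposited TPM and on library totals.

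Of 27 inflammatory genes measured, 1 was apart and higher and 5 were apart and lower, beside 0.496% and 1.57% of all genes. In both wells 11 were lower and 3 higher, beside 25.2% and 28.4% of all genes. Their median of -0.47 was -0.05 without well 4. Well 4 was the highest well for all 5 genes apart and lower. The neutrophil chemokine Cxcl1 stood at 1.29, 0.962, 54.1 and 4.31 CPM, 25.9-fold lower in wells 1 and 3 and 3.83-fold without well 4. Il6 stood at 2.12, 2.12, 19.7 and 7.39 CPM, 6.39-fold lower and 3.49-fold without well 4. Complement C3 at 0.554, 0.192, 29.6 and 3.47 CPM (6 and 2 counts in wells 1 and 3), the chemokine Cxcl5 at 3.23, 1.54, 42.8 and 7.47 CPM and the inducible nitric oxide synthase Nos2 at 8.03, 8.37, 169.7 and 17.1 CPM had the same order, with well 6 above the high pair but far below well 4. Ccl2 at 2.58, 2.02, 34.6 and 2.62 CPM was high in well 4 only. Il1b had the opposite sign, at 18.5 and 11.2 CPM in wells 1 and 3 and 3.56 and 4.31 CPM in wells 4 and 6 (log2 ratio 1.91), above its ChR2 range of 0.918 to 2.41 CPM in all 4 wells.

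Of 18 interferon-induced genes 2 were apart and lower, beside 1.57% of all genes. In both wells 8 were lower and none higher, beside 25.2% and 28.4% of all genes. Their median of -0.64 was -0.10 without well 4, and 5 were then higher in both wells 1 and 3. With a mean of at least 5 CPM, 2 of 10 were lower in both wells. Ifit1 stood at 0.369, 0, 16.2 and 4.62 CPM, with 4 and 0 counts behind wells 1 and 3, and Gbp3 at 0.277, 0.385, 4.60 and 1.31 CPM, with 3 and 4 counts. Of 18 macrophage and leukocyte markers 2 were measured, Cd14 at 6.65 and 4.90 against 2.08 and 2.62 CPM and Cd68 at 8.68 and 5.96 against 5.73 and 4.47 CPM, both higher in wells 1 and 3, while Ptprc, Adgre1 and Csf1r had means under 1 CPM and 6 members were at 0 in all 4 wells. The summed level of that list was 17.4 and 12.8 CPM in wells 1 and 3 and 10.6 and 9.32 CPM in wells 4 and 6.

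Other genes were named by the size of their gap or from the list of secreted factors. On the high side these included the proliferin genes Prl2c3, at 32.96 and 16.6 against 3.30 and 3.85 CPM, and Prl2c2, at 12.3 and 10.3 against 1.30 and 3.39 CPM (4.81-fold, 8.67-fold without well 6), which are near copies of each other. On the low side, the regulator of G protein signalling Rgs4 stood at 0, 0.385, 5.12 and 12.2 CPM, the phospholipase Pla2g4e at 0.277, 0.385, 3.56 and 8.70 CPM and the synaptic vesicle gene Synpr at 0.462, 1.44, 8.24 and 25.3 CPM, with few counts in wells 1 and 3. The bile acid transporter family member Slc10a4 was at 2.31 and 4.23 against 14.9 and 22.3 CPM, the receptor Gpr20 at 1.38 and 2.12 against 9.20 and 13.2 CPM and the matricellular gene Ccn3 at 2.95 and 2.79 against 12.2 and 27.3 CPM. Angiopoietin 1 (Angpt1) stood at 2.77 and 8.27 against 19.4 and 19.5 CPM, 3.52-fold lower and 7.01-fold without well 3.

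The wells that the choice left out gave values side by side. In wells 2 and 5 Gsta1 was at 205 and 97.02, Gsta4 at 205 and 354, Hmox1 at 129.7 and 410.2, Gclm at 38.1 and 113 and Cyp1a1 at 5.08 and 10.4 CPM. For Gclm, well 2 lay nearer to the low pair and well 5 nearer to the high pair. In the same wells Myh4 was at 277 and 122, Myh8 at 524 and 179, Col12a1 at 41.9 and 26.6 and Tfrc at 192 and 130.2 CPM. They held between 1061051 and 2809669 counts, a histone share of 0.212% and 0.170%, and RNAs without a tail from a second list at 2.32% and 0.909%, against at most 0.0318% and 0.00729% in the other 10 libraries. Their levels are therefore not set beside the 4 wells on equal terms.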

How the data were processed

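Poly(A)-selected RNA of the 12 wells was sequenced as paired reads of 50 bases, with low-input samples ribodepleted, per the labels' protocols, which do not name those samples. The authors deposited estimated counts per gene from Salmon, not scaled between libraries, and TPM, which are scaled by gene length and library total. The submitters' processing notes list STAR, Salmon, BWA 0.7.12-r1039 and bedtools 2.25.0 with the builds mm10, hg19 and GRCm39, without roles. No source used here states the strandedness.

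Estimated counts were rounded and scaled with the TMM factors of edgeR 4.0.16 (R 4.3.3) over wells 1, 3, 4 and 6. Tables and figures used Python 3.11.15, pandas 2.3.3, numpy 2.4.6 and matplotlib 3.10.9. Of 56941 genes, 13117 had a mean of at least 1 CPM. The TMM-scaled library sizes of 10398026 to 12986228 put 3 counts at 0.231 to 0.289 CPM. A library under 3 counts was set to 3 in the gap and in the ratios. The rule was run on simulated counts with the same added spread for every gene, which checks the code and not the calls in these wells. No p-value was computed, since the wells were selected by Nqo1.

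The wells and the 46 lists were chosen with earlier results of these data known. The 105 genes named by rule were the 15 with the largest gap in each direction (at least 5 CPM in the higher pair, with an established symbol), up to 3 members apart in each direction per list or else the 2 with the highest mean, and Nqo1, Gsta1, Hmox1, Nfe2l2, Keap1, Myog and Mki67. A few of them are not reported here. Other genes, given by levels alone, were picked after their values were seen. Alternatives were DESeq2 1.42.0 size factors, upper-quartile scaling, library totals, deposited TPM, other filters and gaps, removal of mitochondrial and tail-less RNAs, and each well left out. Wells 2 and 5 entered no ratio.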

Additional observations from a re-analysis of the deposited data

Results flagged for a closer look

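Of 210 sets of wells examined, each a gene in the 4 wild-type wells or in the 6 ChR2 wells, 14 held a well whose gap to the next, over the range of the set, exceeded Dixon's 95% critical value for its size. Chance marks about 1 in 20 sets where values are normally distributed, and these genes were named from the same data.

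In the wild-type wells, well 4 held 29.59 CPM of complement C3 against 0.1923 to 3.465 CPM in the others, and 54.07 CPM of Cxcl1 against 0.9617 to 4.312 CPM. Well 1 held 2849 CPM of skeletal actin Acta1 against 4486 to 4615 CPM, and 154.5 CPM of the D-type cyclin Ccnd3 against 270.2 to 285 CPM.

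Among the ChR2 wells, well 5 held 15.62 CPM of C3 against 1.131 to 1.982 CPM, 0.7556 CPM of Ifit1 against 0 to 0.2564 CPM, and 0.08395 CPM of Lama1 against 0 in the others. Well 1 held 8.461 CPM of Cebpa against 5.002 to 6.129 CPM, 3.846 CPM of Gpr20 against 2.099 to 2.605 CPM, and 158.5 CPM of Mt2 against 117 to 132.6 CPM. Well 2 held 0.1131 CPM of Cyp1a1 against 0 in the others. The Lama1 value of well 5 and the Cyp1a1 value of well 2 lay under 3 counts (0.252 and 0.339 CPM in those wells). Where all other wells hold 0, any count is flagged, so nothing is read from these flags. Well 4 held 209.6 CPM of the histone H1f2 against 136.8 to 162.8 CPM, 38.07 CPM of Rn7sk against 3.734 to 7.294 CPM, and 17.83 CPM of Rpph1 against 0.5248 to 1.931 CPM, the last 2 being RNAs without a poly(A) tail.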

How the results depend on the processing

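The counts of 65 higher and 206 lower genes moved with the rule more than with the scaling. DESeq2 size factors gave 63 and 214, upper-quartile scaling 65 and 219, library totals 81 and 176, the deposited TPM 125 and 142, and removal of mitochondrial and tail-less RNAs 66 and 208. The genes behind these totals were not all the same. On the deposited TPM 55 of the 65 higher genes stayed apart (56 passed the filter there). Of the 206 lower genes 101 stayed apart (154 passed the filter). With no filter on the mean the counts were 103 and 305, and with a mean of at least 5 CPM 35 and 92. A gap of at least 1.5-fold gave 223 and 565, a gap of at least 3-fold 22 and 58, and a ratio of pair means of at least 2-fold with no gap 177 and 727. Leaving out 1 well at a time gave 97 to 173 higher and 362 to 705 lower genes, more by construction since fewer wells had to separate. Of 1438 log2 ratios of single named genes recomputed under these alternatives, 1348 moved by less than the spread between wells and 90 by more. None of those apart changed sign. The other filters and gaps leave a ratio unchanged by construction. Leaving out 1 well is judged against the spread of the same wells and cannot turn the sign of a gene apart. These counts therefore do not measure how firm the ratios are. The list medians for mitochondrial messages, histones and other tail-less RNAs have no value once those genes are removed, nor the endothelial median at 5 CPM. The medians of the lists for replication, fusion, proteolysis of matrix, YAP and SRF targets, sterol synthesis and atrophy changed sign with the scaling and carry no direction. No paired analysis was possible because wells 1 and 3 share no replicate number with wells 4 and 6 and the result comes from no test. Genes under about 3 counts in a well, which is 0.231 to 0.289 CPM here, set a floor on every ratio.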

Other observations

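The genes in this section were chosen after their values were seen and are given as levels in wells 1, 3, 4 and 6. Besides the proliferins already named, the placental hormone gene Prl2c5 was higher in wells 1 and 3, at 3.42, 1.35, 0.0868 and 0.231 CPM. Its values in wells 4 and 6 lay at or under 3 counts (0.260 and 0.231 CPM in those wells). The placental hormone gene Psg28 was likewise higher in wells 1 and 3, at 2.68, 2.31, 0.347 and 0.693 CPM, with well 4 near that floor. Esterase D (Esd) had the same order, at 1766, 1126, 497 and 385 CPM, with ChR2 wells at 296 to 402 CPM. So did the predicted transferase gene Gm3776, at 127, 49.5, 2.00 and 7.24 CPM, whose reads may be shared with the Gsta family. The transporter Slc35e4 at 178, 182, 78.4 and 70.5 CPM, the membrane protein gene Mmd at 148, 129.7, 51.4 and 37.8 CPM and the phosphatase Dusp18 at 118, 110.2, 50.7 and 48.98 CPM stood apart as well.

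On the low side, some kinases of myosin light chain were lower in wells 1 and 3, with Mylk at 5.72, 6.73, 18.9 and 19.5 CPM, Mylk3 at 4.15, 10.2, 25.6 and 34.1 CPM and Mylk4 at 21.9, 46.1, 120.5 and 172 CPM. Mylk2 of the same family was higher in both wells 1 and 3, as given above. The slow-type myosin Myh7b stood at 33.5, 47.03, 114 and 279.9 CPM and the costamere gene Cmya5 at 31.1, 73.5, 158 and 212 CPM. Kcnj2, an inward rectifier potassium channel that helps set the resting potential of myotubes, stood at 20.1, 32.5, 85.6 and 81.4 CPM, and its ChR2 range of 19.1 to 29.5 CPM covered neither low-Nqo1 well. Ceruloplasmin (Cp), a copper-carrying ferroxidase, stood at 6.55, 12.1, 98.5 and 37.3 CPM, with the highest level in well 4. Hepatocyte growth factor (Hgf), which activates muscle stem cells, stood at 6.00, 9.33, 25.1 and 19.3 CPM.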
